A study of Bos taurus with 27 samples.

Results

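The lymph nodes of Bonsmara cattle carrying feeding adult ticks were set against those of Bonsmara cattle carrying feeding larvae, with 3 arrays at each stage, which are 6 of the 27 arrays in the series. The arrays were chosen by their titles alone, and every gene on the array was compared. Bonsmara is a composite breed developed in South Africa. The tick was Rhipicephalus microplus, the cattle tick, at both stages, and the tissue was a biopsy of the superficial cervical lymph node, into which the skin of the neck and shoulder drains. Bonsmara baseline nodes, sampled with no tick attached, and the corresponding nodes of Brahman and Holstein-Friesian cattle were used only where stated. Age, sex and infestation dose were not given in the sources used here, nor was it stated whether adult-stage and larval-stage biopsies came from the same animals. Uninfested animals sampled at the later time were not analysed here, so tick stage, elapsed time and animal age cannot be told apart.

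Rhipicephalus microplus stays on a single host animal through its larval, nymphal and adult blood meals, so the draining node meets saliva from successive stages. In the node, sinus macrophages filter the incoming lymph, T cells and natural killer (NK) cells occupy the paracortex, B cells fill the follicles, and plasma cells line the medullary cords. Reticular fibroblasts hold these compartments together with collagen, laminin and basement membrane, and guide lymphocytes with chemokines such as CCL19.

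Each array set 1 sample, labelled with the dye Cy5, against a common pool of cattle superficial cervical node RNA labelled with Cy3. Values are therefore log2 ratios to that pool, a value of 0 means the level of the pool, and a difference of 1 is a doubling. Base 2 and the direction sample over pool are likely from the dyes and from the software named, but are not written in the table. If the direction were opposite, rises and falls would change places throughout. After averaging over the probes of each gene there were 14495 genes, and with unnamed probes kept singly 28927 features in all. Of 20 markers of lymph node cells, 18 were measured and 0 passed the test threshold between the stages. Only 0.0552% of all genes passed it, so a count of 0 does not show that the cell mix was alike. The marker differences lay between -0.94 for CCL19 and 1.26 for CD163. A ratio to a lymph node pool also cannot show that a biopsy was lymph node.

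An array stood apart among the 6. Over 50 features that separate the breeds, chosen each time without the array in question, 25 of the 27 arrays lay nearest to their own breed. Bonsmara larva replicate 3 did not. Its root mean square distance was 1.1 log2 units to the mean of the other Bonsmara arrays and 0.61 to the Holstein-Friesian mean. This array is counted below under its label. The count of calls, the 8 genes past the threshold, and the gene lists and named members whose difference it moved by over 1.5 times are also given without it. The other exception, Holstein-Friesian larva replicate 3, lay at 1.37 from its own breed and 0.38 from Brahman, and enters the Bonsmara tests through the shared estimate of spread and the breed comparisons directly. A wrong label is possible for either array and was not tested; the Bonsmara larva values would then include a node of another breed.

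Across all features, 14 passed an adjusted p under 0.05 between adult and larval stages in Bonsmara nodes, 8 higher (0.0277%) and 6 lower (0.0207%), together 0.0484% of those tested (limma, Benjamini-Hochberg adjustment). They comprise 8 named genes, 0.0552% of all genes, and 6 probes without a gene name. With adult ticks the T-box factor EOMES, the splicing-associated ARGLU1, the DNA polymerase POLI and the single-stranded DNA binding protein NABP1 rose. The basement membrane genes COL4A2 and LAMB2, the complement factor CFB and the endoplasmic reticulum disulphide isomerase PDIA3 fell. At an unadjusted p under 0.05 there were 2743 features, 1497 higher and 1246 lower. The standard error (SE) of a difference had a median of 0.16 log2 units, so 3 arrays a group limit what can pass. The spread behind each p-value was estimated within all 9 groups of the series, and the labels call the replicates biological without saying what separated them.

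**Figure D1:**
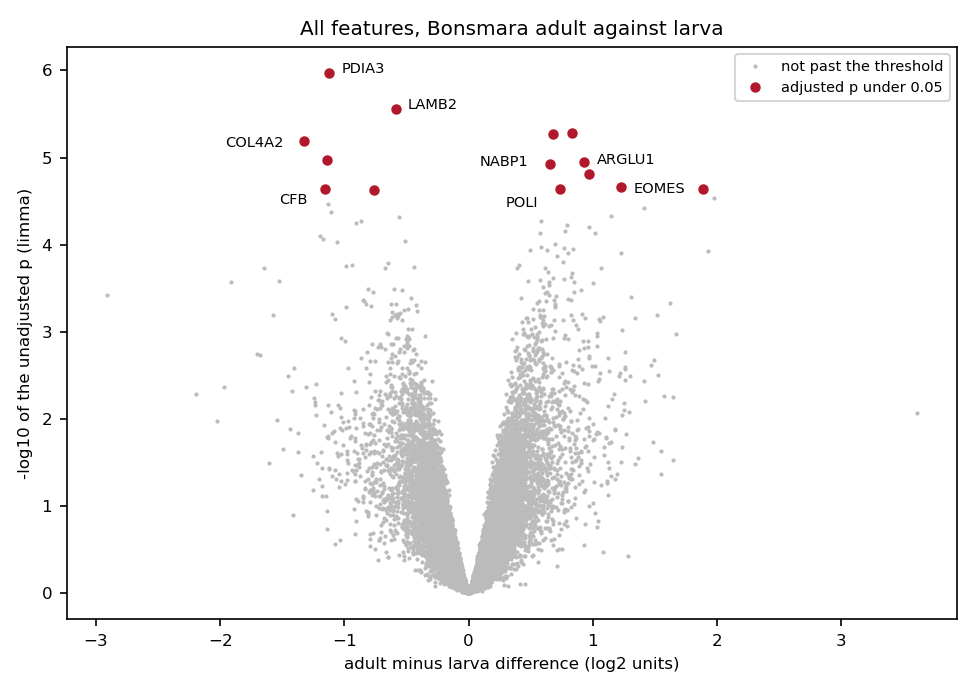
Each point is 1 of the 28927 features, with the adult minus larva difference in log2 units on the x axis and the −log10 of the unadjusted limma p on the y axis. The 14 features past the threshold are in red, and the 8 with a gene name are labelled; 4 of those lie on each side.

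EOMES drives the cytotoxic programme of NK cells and effector T cells. Its log2 ratio was 0.58, 0.56 and 0.59 on the adult arrays, against -0.44, -0.37 and -1.14 on the larva arrays. The adult arrays were all but equal, the groups did not overlap, and larva replicate 3 was the lowest. The difference was 1.23 (SE 0.23, adjusted p = 0.049 with limma). It was 0.98 without larva replicate 3, and the adjusted p was 0.192.

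ARGLU1, a nuclear protein linked to splicing and hormone receptor transcription, stood at 0.66, 0.62 and 0.72 on the adult arrays and at -0.47, -0.06 and -0.26 on the larva arrays. Every adult array was above the pool and every larva array below it. The difference was 0.93 (SE 0.16, limma adjusted p = 0.043). POLI, a translesion DNA polymerase, measured 0.42, 0.57 and 0.52 with adult ticks, against -0.14, -0.13 and -0.41 with larvae. Its difference was 0.73 (SE 0.14, limma adjusted p = 0.049). NABP1, also a DNA damage response gene, measured 0.41, 0.32 and 0.41 with adult ticks, against -0.10, -0.35 and -0.39 with larvae. The groups did not overlap for either gene, and the NABP1 difference was 0.66 (SE 0.12, limma adjusted p = 0.043).

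COL4A2 encodes a chain of type IV collagen, the network collagen of basement membranes. It measured -0.75, -0.33 and -0.66 on the adult arrays, against 0.38, 0.90 and 0.94 on the larva arrays. All adult arrays lay below the pool and all larva arrays above it. The difference was -1.32 (SE 0.22, limma adjusted p = 0.0375), and each of its 4 probes was lower, by differences between -1.57 and -1.01. LAMB2, the laminin beta 2 chain of the same membranes, measured -0.32, -0.29 and -0.35 with adult ticks and 0.27, 0.32 and 0.22 with larvae. The spread within each stage was small beside the gap, and the difference was -0.59 (SE 0.09, limma adjusted p = 0.0375).

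CFB, factor B of the alternative complement pathway, measured -0.09, -0.45 and -0.36 on the adult arrays and 0.88, 0.54 and 1.15 on the larva arrays. All 4 CFB probes were lower, with differences between -1.36 and -0.90, and the gene differed by -1.15 (SE 0.22, limma adjusted p = 0.049). PDIA3 helps newly made glycoproteins fold and serves in the loading of MHC class I. It measured -0.53, 0.07 and -0.43 with adult ticks, against 0.56, 0.91 and 1.01 with larvae, again with no overlap. The difference was -1.12 (SE 0.17, limma adjusted p = 0.0309), the smallest adjusted p of the comparison. PDIA3, ARGLU1 and NABP1 were each measured by 1 probe, so agreement between probes could not be checked for them. The same holds for NKG2C, IDO1, SIGLEC1 and IGHE, given below.

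**Figure D2:**
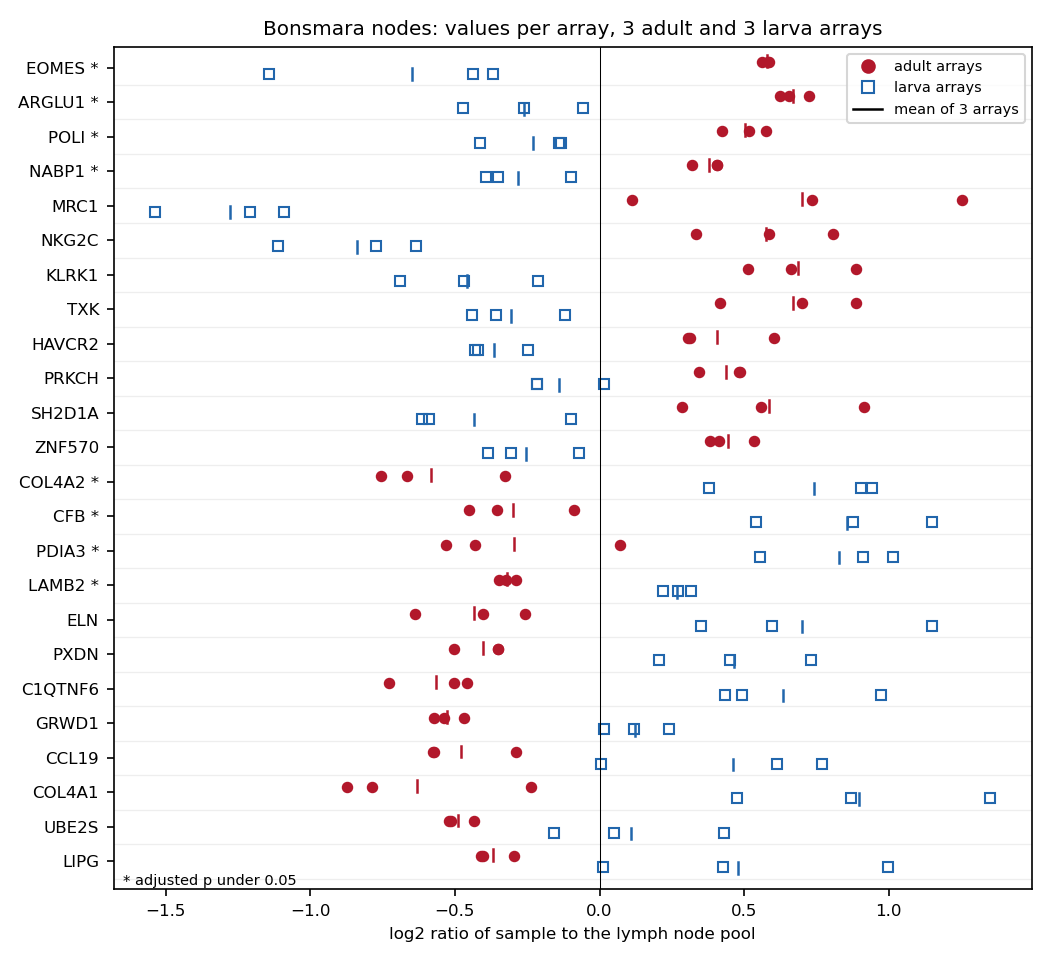
Log2 ratio of sample to the lymph node pool (x axis) for the 12 genes higher and the 12 lower in adult-stage nodes that were chosen by rule, with 3 adult arrays (filled red) and 3 larva arrays (open blue) per gene and a tick at each mean. The stages do not overlap for any gene shown, which was a condition of the choice; a star marks the 8 genes with an adjusted p under 0.05.

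The calls are fragile. The differences of the 8 genes kept their sign under the settings tried. Their arrays do not overlap between stages, so leaving out an array could not reverse a sign. Leaving out any of the 6 arrays brought the number of features past the threshold down to between 0 and 3. Leaving out larva replicate 3 gave 2, and without that array and Holstein-Friesian larva replicate 3 together it was 3, PDIA3 among them (difference -1.03, limma adjusted p = 0.0337). With larva replicate 3 alone left out, the differences were 0.98 for EOMES, 0.93 for ARGLU1, 0.64 for POLI, 0.60 for NABP1, -1.22 for COL4A2, -1.01 for CFB, -1.03 for PDIA3 and -0.61 for LAMB2. Their adjusted p-values in limma then lay between 0.106 and 0.192. Over 14 alternative settings LAMB2 ranged between -0.72 and -0.56 and COL4A2 between -1.64 and -1.22. ARGLU1 ranged between 0.83 and 1.04 under the same settings.

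The genes next in order of p did not pass the threshold, so their differences are given as values only. MRC1, the macrophage mannose receptor, measured 0.11, 0.73 and 1.26 on the adult arrays, against -1.21, -1.09 and -1.54 on the larva arrays, a difference of 1.98 (SE 0.38, limma adjusted p = 0.0555). NKG2C, an activating NK receptor, differed by 1.41 (adjusted p = 0.0651), and KLRK1, which encodes the activating receptor NKG2D, by 1.15 (adjusted p = 0.0692). The other genes with positive differences were the T cell kinase TXK at 0.97, the signalling adaptor SH2D1A at 1.02, the inhibitory receptor HAVCR2 at 0.77, the protein kinase PRKCH at 0.58 and the zinc finger gene ZNF570 at 0.70. Adjusted p-values for these 5 lay between 0.0724 and 0.0863.

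Among the negative differences, elastin (ELN) had -0.26, -0.40 and -0.64 on the adult arrays and 0.60, 0.35 and 1.15 on the larva arrays, a difference of -1.13 (SE 0.22, limma adjusted p = 0.0619). Peroxidasin (PXDN), which crosslinks type IV collagen, differed by -0.87 (adjusted p = 0.0705). COL4A1, the partner chain of COL4A2, differed by -1.53 (SE 0.35, adjusted p = 0.121), a larger difference than for COL4A2 with a larger error. The collagen-like C1QTNF6 differed by -1.20, the chemokine CCL19 by -0.94, the ribosome assembly gene GRWD1 by -0.65, the ubiquitin-conjugating enzyme UBE2S by -0.60 and the endothelial lipase LIPG by -0.85. None of these reached an adjusted p under 0.05.

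Gene groups were described with 30 lists. For each, the number of measured members with an unadjusted p under 0.05 and the median difference are given, because the adjusted threshold was passed by so few genes. List members named below that are outside the naming rule, among them HSPG2, COL18A1, NID1, FN1, SPARC, MMP13, TIMP3, CCL21, PROX1, SDF2L1, IgCgamma, CAV1, IFNG and CXCL9, were chosen after their values were seen. Over all 14495 genes, 5.16% were higher and 4.98% lower at that unadjusted level, and the median difference was -0.0142. The stages did not overlap for 24%, made up of 11.5% higher and 12.5% lower. A positive difference was found for 6753 genes and a negative one for 7742. In a whole biopsy, fewer cells of a type and less RNA per cell cannot be told apart.

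Of 29 cytotoxic and NK cell genes, 28 had a positive difference, 17 were higher at an unadjusted p under 0.05, 0 were lower, and 1, EOMES, passed the adjusted threshold. For 18 of the 29 genes the stages did not overlap, all higher with adult ticks, and the list median difference was 0.58. The list's own median log2 ratio was -0.01, 0.15 and 0.27 on the adult arrays, against -0.30, -0.25 and -0.70 on the larva arrays. The stages did not overlap, and larva replicate 3 lay lowest. Without it the median difference was 0.46 and 10 members were higher at the unadjusted level, and without adult replicate 3 these were 0.53 and 10.

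Individual killer cell genes, named here after their values were seen, gave uneven differences. The chemokine CCL5 measured -0.01, 0.15 and 0.17 with adult ticks and -0.98, -0.68 and -2.75 with larvae, a difference of 1.57 (SE 0.51, limma adjusted p = 0.307), or 0.93 without larva replicate 3, the lowest array. KLRF1, an activating NK receptor, differed by 1.22 and NCR1, the NK receptor NKp46, by 0.57, and the stages overlapped for neither. Granzymes GZMA and GZMB, the proteases delivered to target cells, differed by 0.86 and 0.58 with overlapping arrays. GNLY, the pore-forming granulysin, differed by 0.06 (SE 0.29).

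The interferon-gamma and type 1 list, 19 genes, had 7 members higher and 0 lower at the unadjusted level and a median difference of 0.41, with 0 past the adjusted threshold. IDO1, the tryptophan-degrading enzyme induced by interferon-gamma, measured 0.26, 0.27 and 0.54 on the adult arrays and -0.78, -0.71 and -1.99 on the larva arrays. Its difference was 1.52 (SE 0.38, limma adjusted p = 0.159). IFNG itself differed by 0.14 (SE 0.19) with overlapping arrays. Without larva replicate 3, 4 members were higher and the median was 0.40.

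Of 26 T cell identity genes, 4 were higher and 0 lower at the unadjusted level, 0 passed the adjusted threshold, and the median difference was 0.03. Leaving out 1 array gave medians between -0.06, without adult replicate 1, and 0.09, without larva replicate 1 or 3. TXK and SH2D1A, both also expressed in NK cells, had the smallest p-values. The 10 gamma delta T cell genes had 1 higher and 1 lower, with IL17A at -0.32 and TRGC6, a gamma chain constant region, at 0.71. Their median was 0.20, and 0.12 without adult replicate 1. Larva replicate 3 left out, it was 0.08 with 0 higher and 0 lower, TRGC6 was at 0.45 and IL17A at -0.20. Type I interferon genes had 1 of 32 higher and 0 lower at that level and a median of 0.13: the higher gene was SIGLEC1, which is also a sinus macrophage marker.

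Of 31 macrophage genes, 13 were higher and 1 lower at the unadjusted level, 0 passed the adjusted threshold, and the median difference was 0.41. It was 0.37 with 11 higher when larva replicate 3 was left out, and 0.27 with 9 higher when adult replicate 3 was. SIGLEC1 (CD169), the receptor that marks subcapsular and medullary sinus macrophages, measured 0.02, 0.66 and 1.07 with adult ticks, against -1.02, -1.21 and -1.82 with larvae. Its difference was 1.93 (SE 0.41, limma adjusted p = 0.0885). The list median was -0.03, 0.21 and 0.55 on the adult arrays, against -0.26, -0.19 and -0.46 on the larva arrays. The adult arrays differed more among themselves than the larva arrays did, with replicate 1 lowest.

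Scavenger and growth factor receptors, named after their values were seen, also had adult replicate 1 lowest. CD163, the haemoglobin scavenger receptor, measured -0.27, 0.59 and 1.19 with adult ticks and -1.14, -0.56 and -0.58 with larvae. MSR1 differed by 1.05 and the growth factor receptor CSF1R by 0.77, neither with overlapping arrays. The lower member was TREM2, a lipid-sensing receptor, at -0.34, -0.71 and -0.51 with adult ticks and 0.06, -0.05 and 1.67 with larvae. Its difference of -1.08 (SE 0.27, limma adjusted p = 0.159) came with larva replicate 3 far above the other larva arrays, and was -0.52 without it. LYVE1, which marks lymphatic endothelium and some sinus macrophages, was at -0.63, 0.77 and 1.06 with adult ticks and -0.91, -0.53 and -1.24 with larvae, a difference of 1.29 with overlap.

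Complement genes differed in both directions. Of 19, 5 were higher and 3 lower at the unadjusted level, 1, CFB, passed the adjusted threshold, and the median difference was -0.02, a sign that changed under 6 settings. It was 0.05 without larva replicate 3, with 4 higher and 1 lower, and 0.01 without adult replicate 3, with 2 higher and 4 lower. The classical pathway recognition chain C1QB, made largely by macrophages, had 0.32, 0.49 and 1.14 on the adult arrays and -0.47, -0.58 and -0.68 on the larva arrays, a difference of 1.22 (SE 0.26, limma adjusted p = 0.0889). C1QA differed by 0.96. Properdin (CFP), which stabilises the alternative pathway convertase to which CFB contributes, differed by 0.64, opposite in sign to CFB, and by 0.41 without adult replicate 3. The central component C3 differed by -0.56 (SE 0.20, limma adjusted p = 0.356). Members other than CFB were named after their values were seen. The macrophage list medians given above were higher with adult ticks as well, and their part in the C1Q values was not tested.

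Matrix genes lay on the other side. Of 18 basement membrane genes, 2 fell past the adjusted threshold, COL4A2 and LAMB2, 6 were lower and 0 higher at the unadjusted level, and the median difference was -0.19. Counted over probes in place of genes, the median was -0.39. Heparan sulphate proteoglycan HSPG2 differed by -0.62 and COL18A1 by -0.62, both without overlap. Nidogen NID1, the linker of laminin and type IV collagen, differed by 0.09 with overlap, and between -0.01 and 0.23 with 1 array left out.

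Of 36 interstitial matrix genes, 12 were lower and 1 higher at the unadjusted level, 0 passed the adjusted threshold, and the median was -0.33, or -0.66 over probes in place of genes. COL1A1, the main chain of type I collagen, measured -1.04, -0.17 and -0.83 on the adult arrays, against 0.08, 0.98 and 1.92 on the larva arrays. Its difference was -1.68 (SE 0.47, limma adjusted p = 0.221), with larva replicate 3 highest. Fibronectin (FN1) differed by -1.42 and the matrix protein SPARC by -1.31, both without overlap. Without larva replicate 3 the list median was -0.20 and 6 members were lower, and without adult replicate 3 it was -0.32 with 8 lower. For the basement membrane list it was -0.18 with 5 lower without larva replicate 3, and -0.17 with 4 lower without adult replicate 1.

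Proteases and their inhibitors had 7 of 24 lower and 2 higher at the unadjusted level, with a median of -0.15. The median was -0.05 without larva replicate 3, with 3 lower and 2 higher. ADAM19 differed by -0.58 and the aggrecanase ADAMTS5 by -0.52. The collagenase MMP13 measured -0.19, -0.18 and -0.21 on the adult arrays and -0.10, 0.15 and 2.06 on the larva arrays. Larva replicate 3 alone was high, and the difference was -0.90 (SE 0.37), or -0.22 without that array. TIMP3, a matrix-bound protease inhibitor, had the opposite sign at 1.17.

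Of 24 stromal genes, 6 were lower and 1 higher at the unadjusted level, with a median of -0.26, against -0.08 with 4 lower and 0 higher without larva replicate 3. CCL19, which draws T cells and dendritic cells into the paracortex, measured -0.29, -0.57 and -0.58 on the adult arrays and 0.61, 0.01 and 0.77 on the larva arrays. Its difference was -0.94 (SE 0.21, limma adjusted p = 0.102). CCL21, which shares the receptor of CCL19, differed by 0.21 (SE 0.35) with overlap, and between -0.13 and 0.44 with 1 array left out. GREM1, a BMP antagonist of reticular fibroblasts, differed by -0.66. In the endothelial list, 6 of 32 were lower and 2 higher with a median of -0.04, against 2 lower, 1 higher and -0.07 without larva replicate 3. The median was 0.04 without adult replicate 1 and -0.13 without adult replicate 3. Von Willebrand factor (VWF) of blood vessels had -0.79, while PROX1, the master factor of lymphatic endothelium, had 0.72, a pair with opposite signs.

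**Figure D3:**
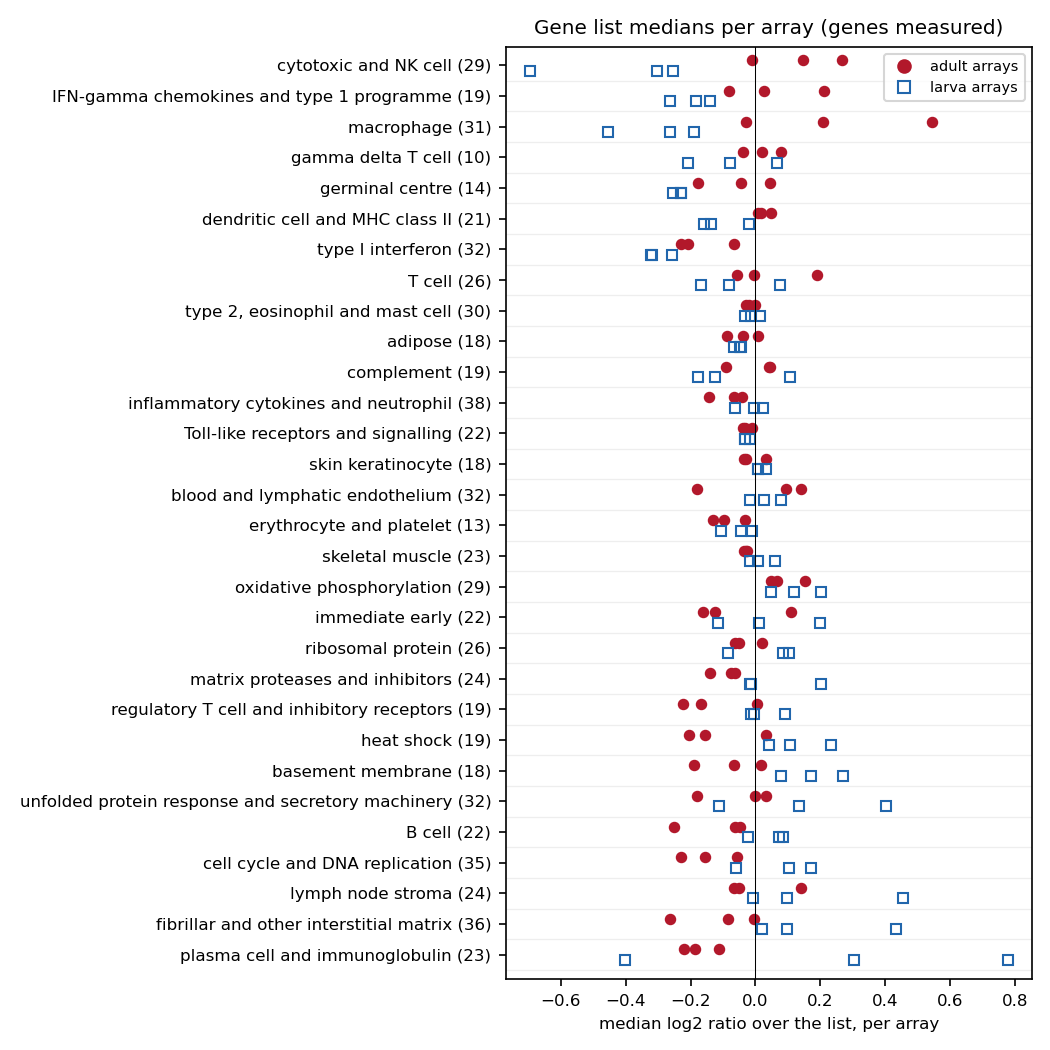
Median log2 ratio over the measured genes of each of 30 lists (x axis), a point for each array, with adult arrays filled red and larva arrays open blue. All adult arrays lie to the right of all larva arrays for the cytotoxic, interferon-gamma, macrophage, dendritic cell, germinal centre and type I interferon lists, and to the left for the interstitial matrix, basement membrane, protease, B cell, heat shock and skeletal muscle lists, while the plasma cell list spreads the larva arrays between -0.40 and 0.78.

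Secretory and plasma cell genes depended on which larva arrays were counted. PDIA3 was the 1 of 32 unfolded protein response and secretory genes past the adjusted threshold; 5 were lower and 0 higher at the unadjusted level, and the median was -0.20. SDF2L1, a chaperone cofactor, measured -0.69, -0.70 and -0.55 on the adult arrays and 0.62, 0.65 and -0.46 on the larva arrays. Without larva replicate 3 the list median was -0.38 and 9 members were lower, and with all arrays scaled to the same interquartile range the median was -0.42. It shrank to -0.10 with 2 lower without larva replicate 2, and to -0.12 with 3 lower without adult replicate 1.

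The 23 plasma cell and immunoglobulin genes had 4 lower and 1 higher at the unadjusted level, a median of -0.43, and 0 past the adjusted threshold. The list median was -0.19, -0.11 and -0.22 with adult ticks, against 0.30, 0.78 and -0.40 with larvae. Larva replicates 1 and 2 were above every adult array, and larva replicate 3 was below all of them. Without that array the median was -0.71 and 13 members were lower, while without larva replicate 2 it was -0.17 and 0 were lower. Leaving out larva replicate 1, adult replicate 1 or adult replicate 3 left 2 lower, with medians between -0.41 and -0.33. IRF4, a factor needed for plasma cell formation, differed by -0.93 (SE 0.32, limma adjusted p = 0.331). MZB1, an immunoglobulin assembly cofactor named after its values were seen, measured -0.78, -0.27 and -0.36 with adult ticks and 0.85, 1.54 and -1.42 with larvae, a difference of -0.79 that was -1.67 without larva replicate 3 and -0.19 without larva replicate 2. IgCgamma, the gamma heavy chain constant region, likewise measured -1.59, -0.97 and -0.77 with adult ticks and 0.96, 1.34 and -0.80 with larvae. In both genes larva replicate 3 lay apart from the other larva arrays. IGHE, the IgE heavy chain, measured 0.02, 1.59 and 0.64 on the adult arrays and -3.97, -0.21 and -4.40 on the larva arrays. Its difference of 3.61 has an SE of 1.25 and an adjusted p of 0.339 in limma, and IGHE was also positive in Brahman and Holstein-Friesian nodes at 5.44 and 2.00. This list also includes CAV1, a caveola gene better known from endothelium, at -0.59.

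B cell genes had 0 of 22 at the unadjusted level in either direction, and a median of -0.20. CXCR5, the follicle homing receptor, differed by -0.56, whereas BANK1 differed by 0.34, both without overlap. Of 35 cell cycle genes, 34 had a negative difference, 3 were lower at the unadjusted level, and the median was -0.23. The stages did not overlap for 16 of them, all lower, against 12.5% lower without overlap over all genes. PLK1, a mitotic kinase, measured -0.41, -0.45 and -0.43 on the adult arrays and 0.04, 0.38 and 0.01 on the larva arrays, a difference of -0.57 (SE 0.22, limma adjusted p = 0.398). Heat shock genes gave 3 of 19 lower and a median of -0.17, and HSPH1, a co-chaperone of HSP70, differed by -0.75. Leaving out larva replicate 3 left 1 heat shock gene lower and a median of -0.10, and leaving out adult replicate 2 left 0 and -0.09. Of the cell cycle genes, 0 were lower without larva replicate 2 (median -0.19) and 1 without adult replicate 3 (median -0.20).

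Lists for dendritic cells, germinal centre, regulatory T cells, Toll-like receptors, inflammatory cytokines, type 2 responses and immediate early genes had medians between -0.17 and 0.14 and no member past the adjusted threshold. At the unadjusted level, 2 dendritic cell genes were higher and 0 lower (median 0.14, or 0.20 without larva replicate 1), as were 1 and 0 germinal centre genes (median 0.14) and 2 and 0 regulatory T cell genes (median -0.17). For type 2 responses 1 was higher and 0 lower (median 0.02), for inflammatory cytokines 0 and 1 (median -0.02), and for immediate early genes 1 and 1 (median -0.12, or -0.22 without larva replicate 2 and -0.06 without adult replicate 1). Toll-like receptor genes had 0 in either direction and a median of -0.02, or 0.10 without larva replicate 3. In the dendritic cell list the co-stimulatory ligand CD86 had the smallest p, at 0.70 (SE 0.17, limma adjusted p = 0.153). In the germinal centre list, with 11 positive and 3 negative differences, MYBL1 differed by 1.24 and BCL6 by 0.50. Immediate early genes had 7 positive and 15 negative differences, with KLF6 at 0.55 and EGR3 at -0.32. Of the type 2 list, CCL26 differed by 0.98 and CCL22 by -0.79. At the unadjusted level, lists for neighbouring tissues had 0 genes higher and 1 lower of 23 for muscle, 2 higher and 1 lower of 18 for fat, and 0 higher and 1 lower of 18 for keratinocytes, with medians of -0.05, 0.01 and -0.02 in that order. Of 13 erythrocyte and platelet genes, 1 was higher and 0 lower, with a median of -0.05. Larva replicate 3 left out, the fat median was -0.03 with 0 higher and 1 lower, and the erythrocyte and platelet median -0.08 with 0 in either direction. The muscle gene was DES, which is also a stromal gene, and the keratinocyte gene was PERP, which was at -2.59 on adult replicate 1 and at -0.07 and 0.15 on the other adult arrays. Its difference was -1.16, or -0.29 without adult replicate 1.

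The question whether these differences belong to Bonsmara was put to the same contrast in the other breeds. In Brahman nodes 1 feature passed the threshold and in Holstein-Friesian nodes 1, both unnamed probes, which is 0.00346% in each, and none of the 14 Bonsmara features passed in either. Differences in response between Bonsmara and Brahman passed for 0 features (1090 at an unadjusted p under 0.05), and between Bonsmara and Holstein-Friesian for 0 (1829). The smallest adjusted p-values of these breed tests were 0.309 for LAMB2 against Brahman and 0.0719 for PDIA3 against Holstein-Friesian. No difference in response between breeds was shown, which does not show that the responses were alike. List medians were not tested between breeds, and those given here were picked after their values were seen. The macrophage median was 0.41 in Bonsmara, 0.50 in Brahman and 0.21 in Holstein-Friesian. In the same order, the cytotoxic median was 0.58, 0.34 and 0.18, and the cell cycle median -0.23, -0.70 and -0.21. The interstitial matrix median was -0.33, 0.10 and -0.20, and the germinal centre median 0.14, -0.53 and 0.24.

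Of the 24 genes named by rule, 22 had the same sign in Brahman and 18 in Holstein-Friesian. Over the genes whose Bonsmara stages did not overlap, the shares with the same sign were 70.9% and 53.2%. EOMES differed by 0.54 in Brahman and 0.29 in Holstein-Friesian, and MRC1 by 1.23 and 1.22. LAMB2 had 0.17 in Brahman, and the test of Bonsmara minus Brahman gave -0.75 (SE 0.13). COL4A2 was near 0 in Brahman, at -0.01, and the corresponding difference of responses was -1.31 (SE 0.32, limma adjusted p = 1). PDIA3 was positive in Holstein-Friesian at 0.38, and Bonsmara minus Holstein-Friesian was -1.5 (SE 0.24). Without Holstein-Friesian larva replicate 3 and Bonsmara larva replicate 3, PDIA3 was at 0.18 in Holstein-Friesian, the same difference was -1.21, its adjusted p was 0.162, and 21 of the 24 genes then had the same sign in Holstein-Friesian. Larger differences in Bonsmara than in the other breeds are favoured by a choice made on Bonsmara and are not a result.

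**Figure D4:**
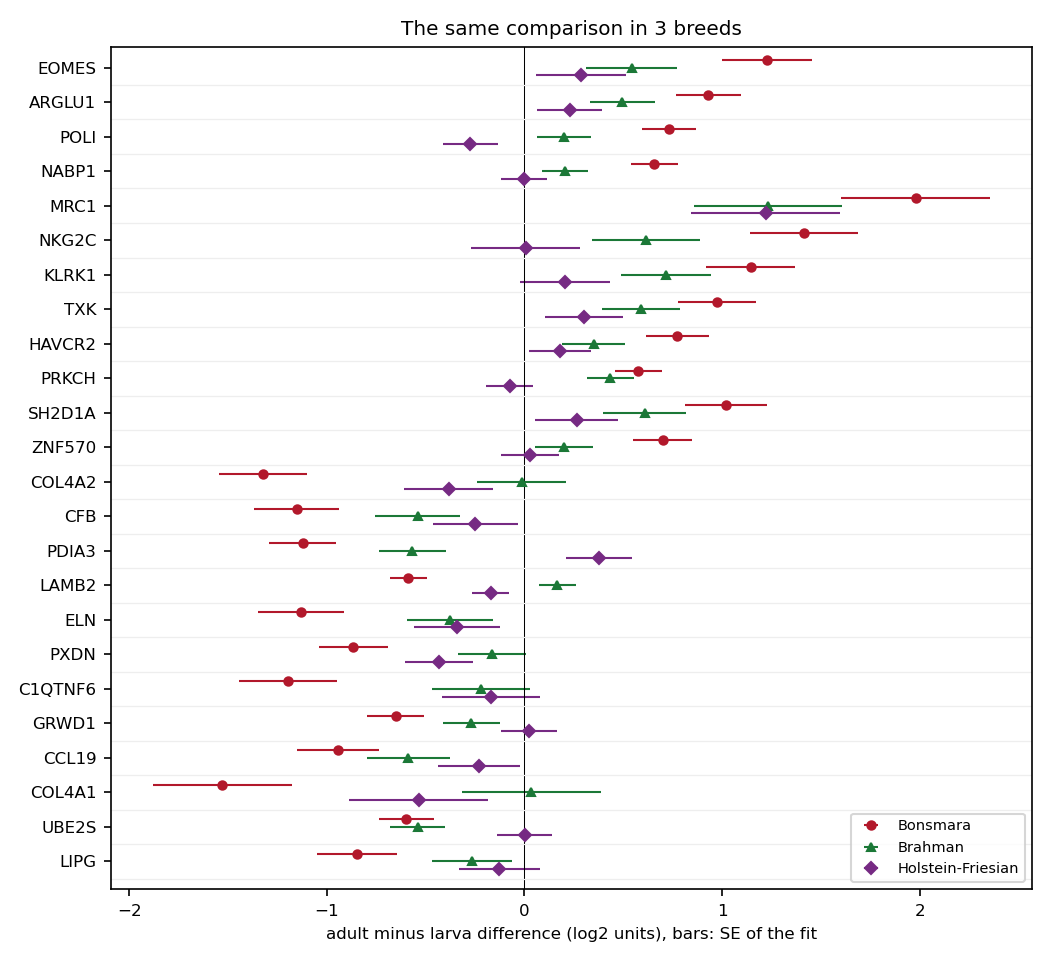
Adult minus larva difference in log2 units (x axis) for the 24 genes in Bonsmara (red circles), Brahman (green triangles) and Holstein-Friesian (purple diamonds), with bars for the SE of the fit. The red points are farthest from 0 for all 24 genes, which a choice made on the Bonsmara values favours and which is not a result. The sign of the red point is shared by 22 green and 18 purple points.

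Bonsmara baseline arrays were placed on the same scale. EOMES averaged 1.03 ± 0.54 at baseline, -0.65 ± 0.43 with larvae and 0.58 ± 0.012 with adult ticks (SD, n = 3 each). COL4A2 averaged -1.04 ± 0.20 at baseline, 0.74 ± 0.31 with larvae and -0.58 ± 0.23 with adult ticks (SD, n = 3 each). In both genes the larval mean lay farthest from baseline, with the adult mean between them. For the 8 genes past the threshold the baseline mean lay nearer to the adult mean in 8, and for the 24 named genes in 23. That share was 56.6% over all genes and 63.5% over genes whose stages did not overlap. The stages were compared with baseline as a description, without a test.

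Not every list followed that order, and the macrophage and cell cycle lists did not. The macrophage list median lay between -0.29 and -0.06 at baseline, between -0.46 and -0.19 with larvae and between -0.03 and 0.55 with adult ticks. The cell cycle median lay between 0.05 and 0.40 at baseline, between -0.06 and 0.17 with larvae and between -0.23 and -0.06 with adult ticks. In both lists baseline overlapped the larval arrays, and in the cell cycle list every adult array lay below every baseline array. MRC1 averaged -0.07 at baseline, -1.28 with larvae and 0.70 with adult ticks. CXCL9, an interferon-gamma-induced chemokine, averaged 2.01 at baseline, -1.49 with larvae and -0.07 with adult ticks, with the adult mean between the others as for EOMES. Its adult minus larva difference was 1.42, or 0.80 without larva replicate 3. The cytotoxic list median lay between 0.23 and 0.68 at baseline, between -0.70 and -0.25 with larvae and between -0.01 and 0.27 with adult ticks.

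**Figure D5:**
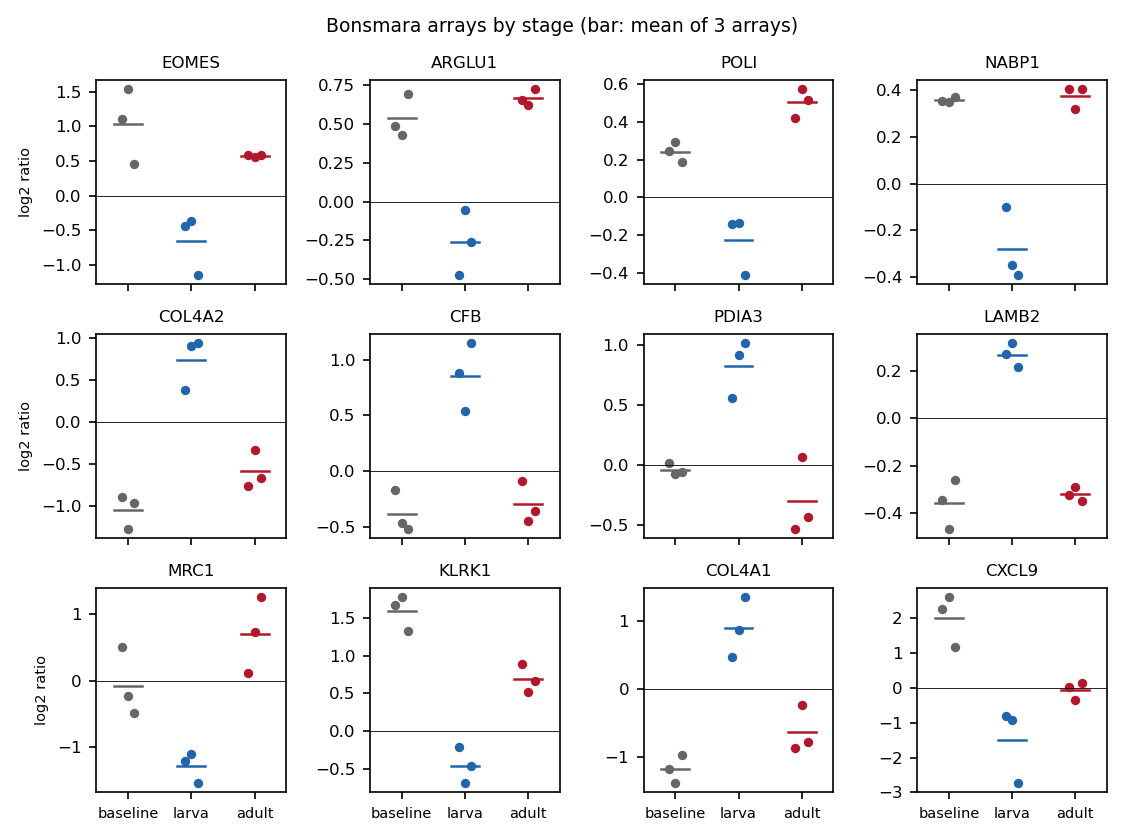
Log2 ratio to the lymph node pool (y axis, a scale of its own in each panel) for 12 genes on the 3 Bonsmara arrays of each stage, in the order baseline, larva, adult, with a bar at each mean. Larval arrays lie apart from both other stages for the 8 genes of the upper panels and for MRC1, KLRK1 and COL4A1. No overlap of larval with adult arrays was a condition of the choice of these genes. By mean, MRC1 is highest with adult ticks and CXCL9 highest at baseline.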

How the data were processed

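RNA of 27 cattle lymph node biopsies was measured on 2-colour arrays, in 9 groups of 3. The authors used limma, per the submitters' processing notes. The deposited table holds log2 ratios, per the dyes in the labels' protocols likely Cy5 (sample) over Cy3 (pool). The limma version, background correction, normalization, slide and scan were not given in the sources used here, and array medians were already near 0. Without scanner intensities, the signal over background is unknown.

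Of 45220 probes, 1 gene symbol was found for 30788, several for 0 and none for 14432, and 2393 symbols were updated through the RefSeq gene table. All 27 arrays entered 1 limma 3.58.1 fit in R 4.3.3 with a mean per group (18 residual degrees of freedom). Contrasts were two-sided, adjusted over 28927 features, with an adjusted p under 0.05 as the threshold, and 5 comparisons were tested. The code was tested on simulated data. The number of arrays limits the precision.

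Named genes were the 12 with the largest differences in each direction past the threshold and no overlap of arrays between stages, without provisional symbols. Where fewer than 6 passed, the rest were filled by smallest p, as values only. Each list gave up to 5 members past the threshold, or else 2 by smallest p, and only some of these are named in the text. Other list members in the text were chosen after their values were seen. Each breed difference gave 6 genes in each direction, and the text names only some of them. The members and the 30 lists (724 of 820 entries measured) were chosen with earlier results of these data known. Alternatives changed the probe averaging, array scaling, arrays fitted, array weights, variance moderation, flat features and replicate block, and left out each array. Leaving out both arrays that lay nearer another breed was added after the data were seen.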

Additional observations from a re-analysis of the deposited data

How the results depend on the processing

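The main count of 14 features past the threshold in Bonsmara depended on every setting tried except leaving out Holstein-Friesian larva replicate 3, which gave 12. It was 27 with each probe as its own feature, 117 with arrays scaled to the same interquartile range (13 of the 14 among them), 1291 with array weights (all 14 among them), 9 with robust variance moderation, 1 with the flattest features left out, and 0 with the 6 arrays alone, where 4488 had an unadjusted p under 0.05 in limma. Leaving out 1 array gave between 0 and 12: 3 without larva replicate 1, 1 without larva replicate 2, 2 without larva replicate 3, 0 without adult replicate 1, 1 without adult replicate 2 and 1 without adult replicate 3. Without both arrays that lay nearer another breed, a setting chosen after seeing the data, it was 3. The interquartile range was 0.21, 0.17 and 0.32 on the larva arrays and 0.27, 0.29 and 0.33 on the adult arrays. Mean correlations with arrays of the same group were 0.22, 0.18 and 0.19 for larva and 0.31, 0.38 and 0.36 for adult arrays. The part of these array differences in the calls was not tested.

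Same-numbered adult and larva arrays deviated together with correlations of 0.163, 0.106 and 0.0812. Each array correlated best with its own number, and arrays of different numbers gave between -0.108 and 0.00128. All of these correlations are low, and the sources do not state that numbers pair animals. The pairing is therefore unsettled, and the numbers were not taken to pair animals. With the replicate block the Bonsmara count was 7, 5 of them among the 14.

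In Brahman the count of 1 became 2 with scaling, 0 with its 6 arrays alone, 10 with array weights, 2 without both arrays, and between 1 and 7 leaving out 1 array. In Holstein-Friesian the count of 1 became 0 with its 6 arrays alone, 4 without both arrays, and between 0 and 42 leaving out 1 array, 42 without adult replicate 2. The Bonsmara minus Brahman count of 0 became 2 with array weights and lay between 0 and 1 leaving out 1 array. The Bonsmara minus Holstein-Friesian count of 0 became 1 with scaling and lay between 0 and 20, 20 without Holstein-Friesian adult replicate 2. The causes were not tested.

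None of the 24 genes named by rule changed sign under any setting tried. No overlap of arrays between stages was a condition of their choice, so leaving out an array could not reverse a sign. AHSP, an erythroid gene, had a difference of -0.31 with all arrays, and leaving out 1 array gave between -0.49 and 0.022, the positive value without Bonsmara adult replicate 3. The type I interferon median was 0.27 and the germinal centre median 0.24 with scaling, against 0.13 and 0.14 without it, and the regulatory T cell median was -0.30 without adult replicate 1. List medians changed sign under 6 settings for complement, 5 for Toll-like receptors, 3 for adipose, 2 for T cell, 2 for type 2 and 1 each for endothelium and keratinocyte, so no direction is given for them.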

Other observations

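RSRC2, a serine- and arginine-rich protein gene, measured 0.33, 0.48 and 0.40 on the adult arrays, against -0.10, -0.02 and 0.07 on the larva arrays. Its difference was 0.42 (SE 0.10, limma adjusted p = 0.147), against -0.05 in Brahman and -0.006 in Holstein-Friesian. RSRC2 was chosen by its small p in the Bonsmara minus Brahman test, whose adjusted threshold it did not pass. Oxidative phosphorylation genes had 2 of 29 higher and 6 lower at an unadjusted p under 0.05 and a median of -0.07, which was -0.03 without larva replicate 3. COX4I1, a subunit of cytochrome c oxidase, differed by -0.48 and NDUFV1, a complex I subunit, by -0.45, whereas COX6C, another cytochrome c oxidase subunit named after its value was seen, differed by 0.81. Of 26 ribosomal protein genes, 4 were lower and 0 higher with a median of -0.12, against 2 lower and -0.09 without larva replicate 3 and 1 lower and -0.08 without adult replicate 1; RPS20 was at -1.39 on adult replicate 1, against -0.31 and 0.03 on the other adult arrays and -0.10 to 0.14 on the larva arrays, a difference of -0.60 that was -0.19 without adult replicate 1.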
